A study of Mus musculus with 6 samples.

Results

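The nuclear genes of the respiratory chain and of the mitochondrial ATP synthase were examined in CD31-positive cells sorted from tumours of BMP9-overexpressing or control Lewis lung carcinoma (LLC) cells. All rows whose gene name begins with Nduf followed by a, b, c, s or v (assembly factors named Ndufaf left out), with Sdha to Sdhd, with Uqcr, with Cox4 to Cox8 or with Atp5 were taken. These were 74 of the 23930 genes of the table, picked by a rule on the name. The rule itself was chosen with earlier results of these data known. They comprised 31 genes of complex I, 4 of complex II, 8 of complex III, 18 of complex IV, 10 of complex V and 3 that carry an Atp5 name but are not subunits, namely Atp5s, Atp5sl and the pseudogene Atp5c1-ps. Ndufa4 and its relative Ndufa4l2 were counted with complex IV, where the Ndufa4 protein is now placed.

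There were 3 libraries of the BMP9 overexpression group (replicates 4, 5 and 6) and 3 of the control group (replicates 1, 2 and 3). LLC is a mouse lung cancer line, and BMP9 is a bone morphogenetic protein that circulates in blood and acts on endothelial cells. In both groups LLC cells grew under the skin of C57/Bl6 mice for 2 weeks, and CD31-positive cells of the tumour were then sorted. The overexpression was in the injected tumour cells, so the BMP9 transcript in the sorted cells does not check the labels. Mouse age, the vector and whether each library came from its own animal are not given in the labels. The p-values therefore reflect only how much these samples varied among themselves, and that variation may be technical.

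Complex I takes electrons from NADH and complex II from succinate, complex III passes them to cytochrome c, and complex IV hands them to oxygen. Complexes I, III and IV pump protons across the inner mitochondrial membrane, and complex V, the ATP synthase, lets them back through its membrane part to make ATP in its F1 head. All of these genes are in the nucleus, while a few central subunits are encoded by mitochondrial DNA and were not analysed here. Endothelial cells are known for making much of their ATP by glycolysis, and proliferating lymphocytes for building up respiration when activated.

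Levels are RPM (reads per gene relative to all reads of that library) from a panel that amplifies a short segment of each gene. Libraries held 1974510 to 28380957 reads in the BMP9 group and 1321762 to 4583428 reads in the control group, so that 3 reads corresponded to 0.106 to 1.52 RPM and to 0.655 to 2.27 RPM. The cells are labelled CD31-positive, and Pecam1, the gene of CD31, stood at 303 ± 53.5 RPM in BMP9 and 448 ± 84.3 RPM in control libraries (SD, n = 3 each). The other 14 endothelial markers examined were low, with sums of 107 to 130 RPM in BMP9 and 68.9 to 113 RPM in control libraries, and 7 of them were at 0 in at least 1 library, Tek, Tie1, Cldn5, Emcn, Erg, Robo4 and Ptprb. Of the 5 endothelial markers tested, Flt1 was higher and Kdr lower. The T and NK cell, macrophage and monocyte, cell cycle, neutrophil and platelet markers differed strongly. Of all tested genes, 22.5% were called lower and 12.7% higher (limma adjusted p below 0.05). All 14 tested T and NK cell markers were lower (summed level 779 to 1442 RPM in BMP9 against 5876 to 6144 RPM in control libraries), 12 of 13 macrophage and monocyte markers were higher (18000 to 24070 against 4490 to 7100 RPM) and all 16 cell cycle genes were lower (216 to 302 against 1410 to 1813 RPM). All 5 tested neutrophil markers (217 to 333 against 25.3 to 45.0 RPM) and all 3 tested platelet markers (583 to 807 against 36.3 to 72.0 RPM) were higher too. Of the epithelial and stromal markers 3 of 5 were called higher (40.7 to 51.2 against 19.7 to 45.2 RPM). Of the B cell markers 1 of 4 was called higher (51.0 to 94.7 against 32.5 to 60.5 RPM). The sums of the epithelial and stromal list and of the B cell list overlapped between the groups. Among the macrophage markers, Cd163, C1qa and C1qc were at 0 in at least 1 library. So were Ly6g, Ngp, Camp and Ltf of the neutrophil list, Gp9 and Gp1bb of the platelet list, and Krt8 and Col1a2 of the epithelial and stromal list. Most of the platelet sum was Pf4, at 619 ± 113 RPM in BMP9 and 49.1 ± 16.7 RPM in control libraries (SD, n = 3 each). In such bulk samples fewer cells of a type and less RNA per cell cannot be told apart, and the part of these markers in the results below was not tested.

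Transcripts of 5 members, Ndufs3, Ndufb6 and Ndufb8 of complex I, Ndufa4 of complex IV and Atp5e of complex V, were lower in BMP9 libraries however the values were processed. The windows around their transcription starts are shown because these calls held under all 16 alternatives. Each runs from 250 bases before to 50 bases after the start, 5′ to 3′ on the gene's strand, from RefSeq on GRCm38.p6. All 5 lie on the minus strand, Ndufs3 at chr2:90904672-90904971, Ndufb6 at chr4:40279372-40279671, Ndufb8 at chr19:44555393-44555692, Ndufa4 at chr6:11907401-11907700 and Atp5e at chr2:174464052-174464351. Capitals mark matches on either strand to CGCATGCG (the core of the site of NRF1, a factor known for driving nuclear genes of respiration), CCGGAAG (ETS factors, to which GABP belongs) or AAGATGGC (YY1).
Ndufs3: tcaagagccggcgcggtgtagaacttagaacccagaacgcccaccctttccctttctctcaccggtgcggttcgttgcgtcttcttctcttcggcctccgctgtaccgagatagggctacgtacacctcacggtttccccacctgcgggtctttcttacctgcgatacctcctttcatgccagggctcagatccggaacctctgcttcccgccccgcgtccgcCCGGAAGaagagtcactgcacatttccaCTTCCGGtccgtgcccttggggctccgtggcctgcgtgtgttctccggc
Ndufb6: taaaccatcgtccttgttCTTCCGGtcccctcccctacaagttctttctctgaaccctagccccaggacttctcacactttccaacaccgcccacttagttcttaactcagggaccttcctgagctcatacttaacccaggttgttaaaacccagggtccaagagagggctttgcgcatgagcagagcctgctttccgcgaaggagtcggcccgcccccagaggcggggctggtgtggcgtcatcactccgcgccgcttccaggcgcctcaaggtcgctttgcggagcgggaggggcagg
Ndufb8: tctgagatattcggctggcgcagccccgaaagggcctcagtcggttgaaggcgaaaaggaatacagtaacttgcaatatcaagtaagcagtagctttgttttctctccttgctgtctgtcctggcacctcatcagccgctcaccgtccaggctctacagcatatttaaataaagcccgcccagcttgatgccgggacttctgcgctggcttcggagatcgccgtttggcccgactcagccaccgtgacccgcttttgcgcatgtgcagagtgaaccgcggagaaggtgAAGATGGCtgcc
Ndufa4: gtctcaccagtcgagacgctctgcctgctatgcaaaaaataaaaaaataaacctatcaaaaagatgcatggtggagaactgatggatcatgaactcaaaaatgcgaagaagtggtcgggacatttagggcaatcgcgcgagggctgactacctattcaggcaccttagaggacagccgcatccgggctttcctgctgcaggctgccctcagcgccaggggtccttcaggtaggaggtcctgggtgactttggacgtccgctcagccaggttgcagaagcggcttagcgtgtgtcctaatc
Atp5e: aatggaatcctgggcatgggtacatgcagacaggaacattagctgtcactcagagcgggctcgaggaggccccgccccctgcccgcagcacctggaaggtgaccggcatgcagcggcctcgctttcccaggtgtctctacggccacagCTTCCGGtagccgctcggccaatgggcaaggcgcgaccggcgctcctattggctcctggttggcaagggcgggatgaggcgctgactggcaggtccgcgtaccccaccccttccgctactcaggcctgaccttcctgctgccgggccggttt

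The CCGGAAG motif began at positions -27 and 1 from the start of Ndufs3, counting the start base as 0, at -232 in Ndufb6 and at -102 in Atp5e. AAGATGGC began at 38 in Ndufb8, the window of Ndufa4 held none of these motifs, and CGCATGCG was in none of the 5. Over the 56 members with a RefSeq window (60 windows), CGCATGCG was found in 11.7% of windows, CCGGAAG in 23.3% and AAGATGGC in 15.0%, against 1.87%, 8.86% and 2.75% of all 32851 windows. The CCAAT motif was found in 43.3% of the members' windows and in 37.4% of all windows. Only 11 of the members called lower had a window, and they gave 13 windows. Of these 13, 0 held CGCATGCG, 3 held CCGGAAG, 2 held AAGATGGC and 2 held CCAAT. In the 42 windows of 40 tested members not called, the counts were 7, 10, 7 and 20. Both strands were searched, matches to different motifs were allowed to overlap, and a match is a description of the sequence, not of binding.

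Of the 74 genes, 63 had at least 5 RPM in at least 3 libraries and were tested, as part of all 9460 genes that passed this filter, by limma on log2(RPM + 1). In BMP9 libraries 13 of the 63 were lower and 1 was higher at an adjusted p below 0.05, which is 22.2% of them, whereas 35.2% of all 9460 tested genes were called (22.5% lower and 12.7% higher). The share of members called was thus below that of all genes, and the share called lower (20.6%) was close to that of all genes, and neither difference was tested. The median log2 fold change was -0.24 for the members and -0.24 for all tested genes. The quartiles of the members lay at -0.72 and 0.06, against -0.82 and 0.36 for all genes, and 10 of 63 members (15.9%) differed by more than 2-fold, against 29.8% of all genes. In 20 members all BMP9 libraries were below all control libraries and in 3 all were above, or 36.5% of the 63, while 48.1% of all tested genes had groups that did not overlap.

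**Figure D1:**
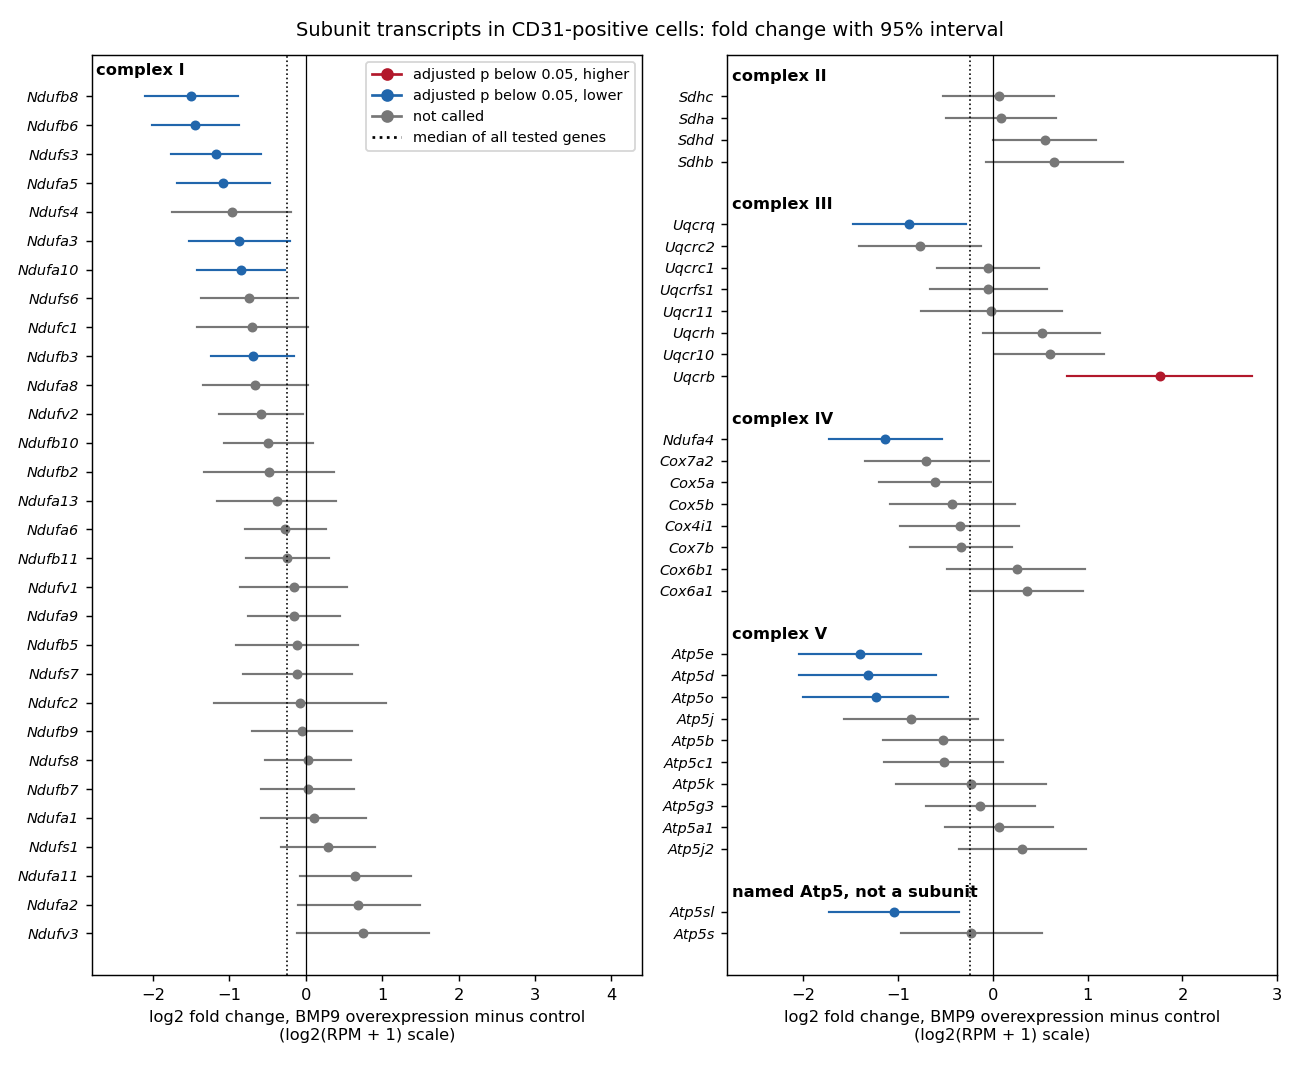
Log2 fold change (x axis, BMP9 overexpression minus control, log2(RPM + 1) scale) of 62 of the 63 tested genes (y axis), by complex, with 95% intervals from limma, coloured by call; the dotted line is the median of all tested genes. The genes not called lie on both sides of that line at -0.24, 13 genes are called lower and Uqcrb alone is called higher.

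RPM values are shares of a library, and TMM scaling moved the median of all tested genes by 0.24, from -0.24 to 0.00. With it the members' median was 0.01, and 8 members were lower and 4 higher (19.0% called), where 31.8% of all genes were called (14.6% lower and 17.2% higher). With edgeR on the recovered reads 7 were lower and 8 higher, against 15.0% and 17.9% of all genes and 32.9% in either direction. DESeq2 gave 8 lower and 8 higher, with 35.1% of all genes called (16.3% lower and 18.7% higher). Quantile normalization gave 10 lower and 1 higher, with 32.4% of all genes called (16.2% in each direction). Calls in this gene group were thus mostly lower on the deposited scale, after TMM scaling and after quantile normalization, but not with edgeR or DESeq2, whereas Ndufs3, Ndufb6, Ndufb8, Ndufa4 and Atp5e were lower on every scale tried.

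**Figure D2:**
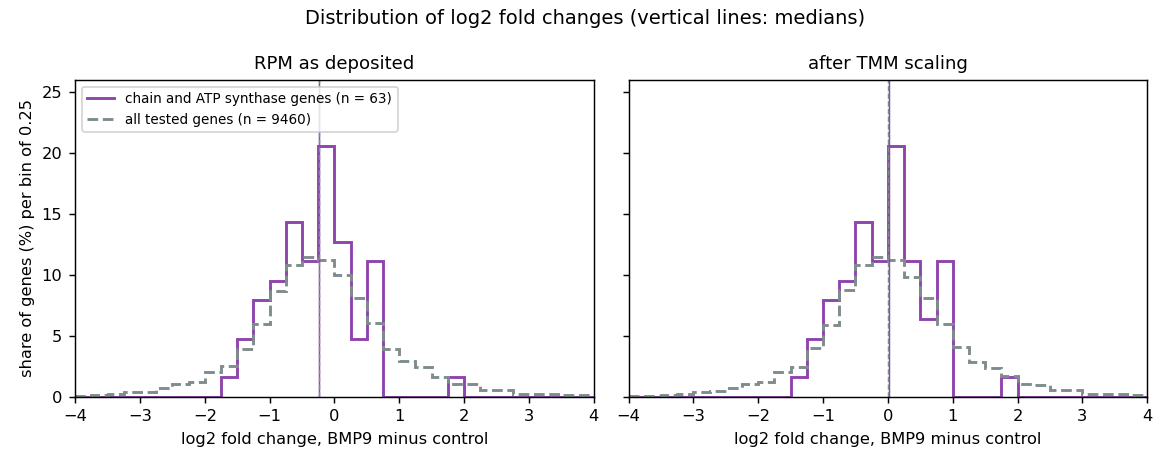
Share of genes (y axis, percent per bin of 0.25) by log2 fold change, BMP9 minus control (x axis), for the 63 chain and ATP synthase genes and all 9460 tested genes, with RPM as deposited (left) and after TMM scaling (right); vertical lines are medians. The members form a narrower distribution, and both medians move together, to 0.01 and 0.00, after scaling.

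In complex I, 7 of 31 genes were lower and 0 were higher, with a median of -0.27. The share called lower, 22.6%, was near the 22.5% of all tested genes, and the median was near that of all genes. The fold changes of the 24 genes not called lay on both sides of 0. The 7 core subunits, which carry the redox centres and bind quinone, gave 1 call (lower) and a median of -0.11, and the 24 supernumerary subunits gave 6 calls (all lower) and a median of -0.43. The difference between these classes was not tested. Summed over all 31 genes the level was 3500, 3182 and 2972 RPM in BMP9 libraries 4, 5 and 6, against 3795, 3977 and 3930 RPM in control libraries 1, 2 and 3. The groups did not overlap, with means of 3218 ± 266 and 3901 ± 94.7 RPM (SD, n = 3 each; exact two-sided permutation p = 0.1, the smallest that 3 against 3 allows). These sums are of RPM as deposited, and after TMM scaling the median of the complex I genes was -0.01. Of all tested genes, 31.2% had every BMP9 library below every control library on the deposited scale.

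Ndufb8 (chromosome 19, 44548572 to 44555440, mm10) encodes a membrane arm subunit whose protein is widely used as a sign of assembled complex I. Its transcript had 34.4, 42.0 and 31.4 RPM in BMP9 libraries, against 135, 90.8 and 89.0 RPM in control libraries. Every BMP9 library was below every control library, with a log2 fold change of -1.50 (SE 0.29, 95% interval -2.11 to -0.89; limma adjusted p = 0.00099). Ndufb6 (chromosome 4, 40270591 to 40279421), another supernumerary subunit of the membrane arm, had 33.9, 44.4 and 43.4 RPM in BMP9 libraries, against 124, 114 and 98.0 RPM in control libraries. Its groups were just as separate, at -1.45 (SE 0.27; limma adjusted p = 0.00088), which is a level 0.367 times that of the control. Both genes stayed called without each library in turn and among the libraries of the earlier time stamp alone. The descriptions carry an earlier and a later time stamp, the labels do not say what they mark, and BMP9 replicates 5 and 6 have the later.

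Ndufs3 (chromosome 2, 90894634 to 90904827) encodes a core subunit next to the quinone site, and it was the only core gene called. It had 93.2, 146 and 132 RPM in BMP9 libraries, against 339, 237 and 260 RPM in control libraries. The 2 groups were apart, and the log2 fold change was -1.17 (SE 0.28; limma adjusted p = 0.0042). The other core subunits gave no call. Ndufs1, the largest iron-sulphur subunit, had 202, 322 and 238 RPM in BMP9 libraries, against 195, 157 and 279 RPM in control libraries, and its groups overlapped (log2 fold change 0.29). Ndufs7, Ndufs8 and Ndufv1 lay between -0.16 and 0.03 with overlapping groups. Ndufv2, an iron-sulphur subunit, was 1 of the 2 complex I genes with the highest mean RPM. It had 181, 179 and 219 RPM in BMP9 libraries, against 267, 358 and 254 RPM in control libraries. All BMP9 values were below the control values, at -0.59, but the gene missed the threshold (limma adjusted p = 0.09).

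Ndufa5 (chromosome 6, 24518666 to 24528013), a supernumerary subunit of the matrix arm, had 45.1, 29.7 and 34.3 RPM in BMP9 libraries, against 75.5, 86.2 and 69.0 RPM in control libraries. The groups were apart (log2 fold change -1.08, SE 0.28; limma adjusted p = 0.0088), and within the earlier stamp the change was -0.75 and was not called. Ndufa3, Ndufa10 and Ndufb3, 3 further supernumerary subunits, were called lower by smaller margins, at -0.87, -0.85 and -0.69 (limma adjusted p 0.039, 0.024 and 0.046). None of the 3 was called after TMM scaling (-0.62, -0.60 and -0.44), and Ndufb3 was lost without any 1 of the 6 libraries. Ndufs4, a subunit needed for a stable complex I and mutated in human Leigh syndrome, lay just outside the threshold with 11.6, 34.7 and 18.4 RPM in BMP9 libraries, against 36.7, 39.3 and 42.5 RPM in control libraries. It was below control in all 3 BMP9 libraries, at -0.97, and was called within the earlier stamp at -1.68. Ndufb11, the other complex I gene with the highest mean RPM, overlapped between groups (256 ± 21.9 and 304 ± 42.2 RPM, SD, n = 3 each; -0.24). The 13 remaining supernumerary genes (Ndufa1, Ndufa6, Ndufa8, Ndufa9, Ndufa13, Ndufb2, Ndufb5, Ndufb7, Ndufb9, Ndufb10, Ndufc1, Ndufc2 and Ndufs6) lay between -0.74 for Ndufs6 and 0.11 for Ndufa1. Of these only Ndufa6 and Ndufs6 had all BMP9 libraries below all control libraries. Ndufc2 varied most between libraries, with 9.12, 57.4 and 29.6 RPM in BMP9 libraries, against 31.6, 14.4 and 41.0 RPM in control libraries.

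The highest fold changes in complex I were those of the supernumerary genes Ndufv3, Ndufa2 and Ndufa11, at 0.75, 0.69 and 0.65, none called by limma. edgeR on the recovered reads called all 3 higher (1.18, 1.0 and 0.97). The BMP9 libraries differed widely from each other for Ndufa2, which had 249, 139 and 86.1 RPM in BMP9 libraries 4, 5 and 6, against 79.9, 64.3 and 137 RPM in control libraries.

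**Figure D3:**
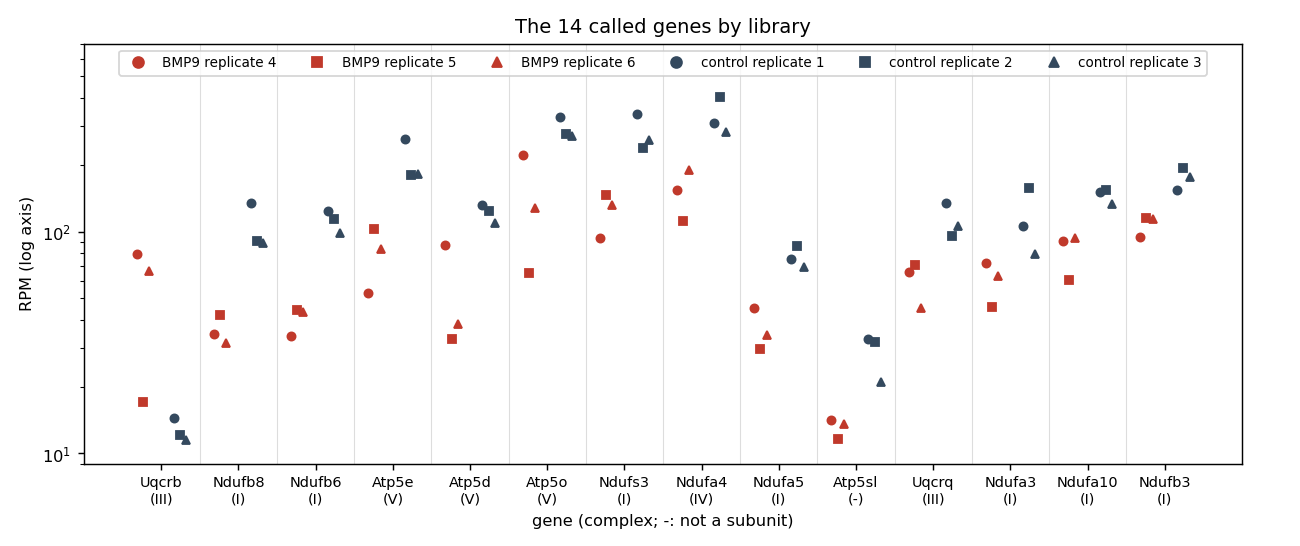
RPM (y axis, log scale) of the 14 called genes (x axis, with their complex) in each of the 3 BMP9 libraries (red) and 3 control libraries (dark). The 13 genes called lower have all BMP9 libraries below all control libraries, and for Uqcrb BMP9 replicate 5, at 17.0 RPM, lies close to the control libraries.

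Complex II, succinate dehydrogenase, is also an enzyme of the tricarboxylic acid cycle. None of its 4 genes was called by limma, all 4 fold changes were above 0, and their median was 0.32. Summed levels were 770, 633 and 576 RPM in BMP9 libraries, against 448, 518 and 579 RPM in control libraries, and the groups overlapped (exact two-sided permutation p = 0.2). Sdha, the flavoprotein that oxidizes succinate, had 156 ± 35.3 RPM in BMP9 and 145 ± 24 RPM in control libraries (SD, n = 3 each), and the membrane anchor Sdhc had 138 ± 25.9 and 133 ± 29.7 RPM.

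Sdhd (chromosome 9, 50596357 to 50603812), the other membrane anchor, had 199, 213 and 204 RPM in BMP9 libraries, against 119, 133 and 173 RPM in control libraries. All BMP9 values were above all control values, by 0.55 on the log2 scale (SE 0.26; limma adjusted p = 0.11), and TMM scaling gave 0.80 with an adjusted p of 0.027. Sdhb, the iron-sulphur subunit, had 259, 120 and 102 RPM in BMP9 libraries, against 86.0, 80.2 and 119 RPM in control libraries. BMP9 replicate 4 stood well above the other libraries, and the change of 0.65 was not called by limma (adjusted p = 0.15) but was by edgeR (1.0, adjusted p = 0.033).

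In complex III, 1 of 8 genes was higher (Uqcrb) and 1 was lower (Uqcrq). Each is 12.5% of the complex, beside 12.7% of all tested genes called higher and 22.5% called lower. Its summed level was 1115, 835 and 815 RPM in BMP9 libraries, against 971, 873 and 918 RPM in control libraries (exact two-sided permutation p = 1.0), and its median fold change was -0.03. Uqcrb (chromosome 13, 66900617 to 66905378) encodes a small subunit at the ubiquinone pocket and was the only member called higher. It had 79.5, 17.0 and 66.1 RPM in BMP9 libraries 4, 5 and 6, against 14.4, 12.1 and 11.5 RPM in control libraries. The groups did not overlap, but BMP9 replicate 5 was much closer to control than replicates 4 and 6. The control levels rested on 66, 16 and 23 reads. The log2 fold change was 1.76 (SE 0.46, 95% interval 0.78 to 2.73, limma adjusted p = 0.0082), and it was 2.56 within the earlier stamp. The gene was not called with no filter or without BMP9 replicate 6 (1.48).

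Uqcrq (chromosome 11, 53427922 to 53430831), another small subunit, had 65.8, 71.0 and 45.3 RPM in BMP9 libraries, against 134, 95.3 and 106 RPM in control libraries. All BMP9 values were lower, at -0.88 (SE 0.28; limma adjusted p = 0.025). The call was lost with no filter, after TMM scaling (-0.63), and with edgeR (-0.63) and DESeq2 (-0.64). It was lost too within the earlier stamp (-0.74) and with the stamp as covariate. The same held without control replicate 1 (-0.74), control replicate 3 (-0.91) or BMP9 replicate 6 (-0.69). Uqcr10, a small subunit of the complex, had 118, 144 and 134 RPM in BMP9 libraries, against 112, 73.4 and 78.5 RPM in control libraries. All BMP9 values were higher, by 0.60, which passed only after rescaling (limma adjusted p = 0.099, with TMM 0.85 and adjusted p = 0.022).

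The core protein genes gave no call. Uqcrc2 had 191, 85.3 and 119 RPM in BMP9 libraries, against 226, 216 and 199 RPM in control libraries, a separation of -0.77 that missed the threshold (limma adjusted p = 0.058). Uqcrc1 overlapped, at 203 ± 21.5 and 211 ± 31.6 RPM (SD, n = 3 each). The Rieske iron-sulphur gene Uqcrfs1 and Uqcr11 changed by -0.05 and -0.02. Uqcrh, the hinge protein that binds cytochrome c1, changed by 0.52 and was not called on the deposited scale (limma adjusted p = 0.18). It was called higher after TMM scaling (0.77, adjusted p = 0.049) and with edgeR (0.79, adjusted p = 0.045). Cyc1, cytochrome c1 itself, stood outside the name rule and had a log2 fold change of 0.16 (SE 0.29; not called).

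**Figure D4:**
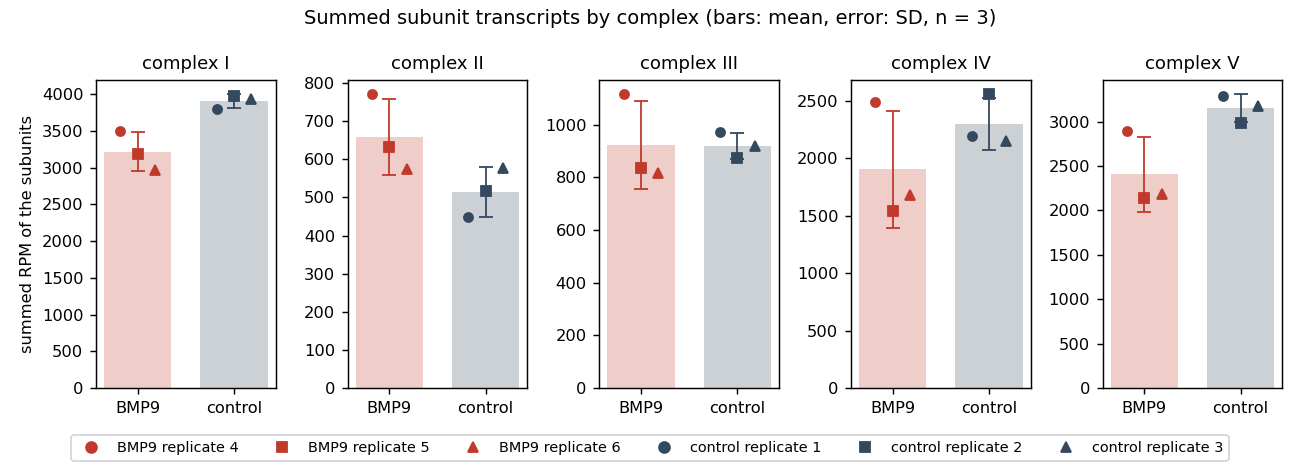
Summed RPM of the genes of each complex (y axis, from 0) in BMP9 and control libraries, with points for libraries, bars for the mean and error bars for the SD (n = 3 each). In complexes I and V every BMP9 library lies below every control library, and in complexes II, III and IV the groups overlap. The sums are of RPM as deposited, without TMM scaling.

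Cytochrome c oxidase, complex IV, has several nuclear subunits that occur as ubiquitous and tissue-specific isoforms. Only 8 of the 18 genes were tested, and their median was -0.39. Of the 8, 1 was lower (12.5%), beside 22.5% of all tested genes called lower. Summed levels were 2483, 1544 and 1675 RPM in BMP9 libraries, against 2188, 2553 and 2147 RPM in control libraries, and BMP9 replicate 4 lay within the control range (exact two-sided permutation p = 0.3). The called gene was Ndufa4 (chromosome 6, 11900292 to 11907497), with 153, 112 and 190 RPM in BMP9 libraries, against 309, 402 and 282 RPM in control libraries. Its groups were apart at -1.14 (SE 0.28; limma adjusted p = 0.0055), and its call held under all 16 alternatives.

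Cox5a, one of the genes with the most reads in this complex, had 280, 221 and 302 RPM in BMP9 libraries, against 394, 537 and 314 RPM in control libraries. Its BMP9 values were all lower (-0.61; limma adjusted p = 0.1). Cox6b1, the other, faces the cytochrome c side and had 666, 274 and 320 RPM in BMP9 libraries, against 243, 432 and 333 RPM in control libraries, with overlapping groups and a replicate 4 above all others. Of the remaining ubiquitous genes, Cox7a2 (-0.70), Cox5b (-0.43), Cox4i1 (-0.35), Cox7b (-0.34) and Cox6a1 (0.36) were not called, and of these Cox7b alone had groups that did not overlap. Cox7a2 and Cox5b were called lower once BMP9 replicate 4 was left out, at -1.01 and -0.77.

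The tissue-specific and condition-specific isoforms were near the limit of detection. Cox4i2, the lung and hypoxia isoform of Cox4i1, had 2, 4 and 20 reads in BMP9 libraries (0.875 ± 0.156 RPM), against 1, 0 and 0 reads in control libraries (0.0727 ± 0.126 RPM; SD, n = 3 each). Of the genes below the filter it was the only one called when no filter was applied (limma adjusted p = 0.014). In that fit 12.9% of all 18274 genes were called, and at these counts no fold is given. Ndufa4l2, the hypoxia-induced relative of Ndufa4, had 1, 4 and 21 reads, against 1, 0 and 1. Among the muscle isoforms Cox6a2 averaged 1.21 and 2.85 RPM and Cox7a1 averaged 1.34 and 0.616 RPM in BMP9 and control libraries. The testis isoform Cox6b2 averaged 3.94 and 2.31 RPM, and Cox7b2, Cox8b and Cox8c were listed at 0 in all 6 libraries. Cox6c and Cox8a, which most tissues express, were also near 0, at 0.987 and 0.758 RPM in BMP9 and 0.291 and 2.19 RPM in control libraries. Low values of the isoforms on this panel are given as listed and not as absence.

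Complex V had 3 of 10 genes lower, 0 higher and a median of -0.52, beside 22.5% of all genes called lower and a median of -0.24. Summed levels were 2889, 2142 and 2185 RPM in BMP9 libraries, against 3293, 2981 and 3171 RPM in control libraries, again without overlap (2406 ± 420 and 3148 ± 157 RPM, SD, n = 3 each, exact two-sided permutation p = 0.1). These sums are of RPM as deposited too, and after TMM scaling the median of the complex V genes was -0.27. Of the 5 F1 genes, the 2 that form the foot of the rotor were called and the 3 others were not. Atp5e (chromosome 2, 174461072 to 174464105), the epsilon subunit of that foot, had 52.7, 102 and 83.2 RPM in BMP9 libraries, against 262, 179 and 181 RPM in control libraries. The groups were apart at -1.40 (SE 0.30, 95% interval -2.04 to -0.76; limma adjusted p = 0.0022).

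Atp5d (chromosome 10, 80138632 to 80145818), the delta subunit of the foot, had 86.6, 32.9 and 38.4 RPM in BMP9 libraries, against 132, 124 and 109 RPM in control libraries. BMP9 replicates 5 and 6 were lowest and replicate 4 lay between them and control, and the change of -1.32 (SE 0.34; limma adjusted p = 0.0073) was -0.48 and not called within the earlier stamp. The catalytic F1 genes had the most reads. Atp5b, the beta subunit that makes ATP, had 758, 396 and 491 RPM in BMP9 libraries, against 885, 599 and 835 RPM in control libraries. The groups overlapped (-0.53; limma adjusted p = 0.18), and the gene was called lower without BMP9 replicate 4 (-0.79). Atp5a1, the alpha subunit, had 535 ± 19.9 and 522 ± 114 RPM (SD, n = 3 each; 0.06), and the gamma subunit Atp5c1 had 170 ± 28.5 and 253 ± 93.7 RPM (-0.52).

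In the stalk, Atp5o, the protein that ties the F1 head to the stator, had 221, 65.1 and 128 RPM in BMP9 libraries, against 329, 275 and 269 RPM in control libraries. It was lower in all 3 BMP9 libraries (-1.23, SE 0.36, limma adjusted p = 0.015). But the call was lost with no filter, edgeR (-0.84) and DESeq2 (-0.85), within the earlier stamp (-0.39) and with the stamp as covariate. It was also lost without control replicate 1 (-1.14) and without BMP9 replicate 5 (-0.78). Atp5j, coupling factor 6 of the stalk, had 86.6, 180 and 115 RPM in BMP9 libraries, against 166, 343 and 192 RPM in control libraries, and just missed the threshold (-0.86; limma adjusted p = 0.055). The c-ring gene Atp5g3 and the membrane genes Atp5j2 and Atp5k lay at -0.14, 0.31 and -0.23 with no call.

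Among the genes that carry the name but are not subunits, Atp5sl, whose human counterpart takes part in complex I assembly, was lower at 13.1 ± 1.37 RPM in BMP9 and 28.5 ± 6.51 RPM in control libraries (SD, n = 3 each; -1.04, limma adjusted p = 0.021). The call was lost after TMM scaling (-0.80), after quantile normalization (-0.74), with edgeR (-0.87) and without 4 of the 6 libraries. It was lost too within the earlier stamp (-0.93) and with the stamp as covariate. Atp5s, a coupling factor, was not called (-0.23), and the pseudogene Atp5c1-ps had 1 read in 1 library of each group.

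The BMP9 libraries did not behave alike over these genes. Relative to the control mean, the median member lay at -0.12, -0.38 and -0.41 on the log2 scale in BMP9 replicates 4, 5 and 6, while the median of all tested genes was -0.20, -0.25 and -0.23. Replicate 4, the only BMP9 library of the earlier time stamp, was the highest of the 3 in 33 of the 63 members, replicate 5 in 20 and replicate 6 in 10. The same count was not made over all tested genes. Without replicate 4, 18 members were lower and 1 higher (30.2% called), against 25% and 12.2% of all 9240 genes tested then (37.1% in either direction). Within the earlier stamp, where replicate 4 stands alone against the 3 control libraries, 7 were lower and 4 were higher, against 18.3% and 9.33% of all 9101 genes tested there (27.7% in either direction). With the stamp as a covariate 8 were lower and 7 higher, against 19.6% and 12.0% of all genes (31.6% in either direction). In each of these 2 fits 5 of the 13 lower members remained. Within the earlier stamp replicate 4 is assumed to vary as the control libraries do. The later stamp holds no control library, so the group difference in both fits is replicate 4 minus the control libraries. They are therefore not 2 separate checks, and the members' median was -0.12 in both. Summed over all 74 genes the level was 10780, 8358 and 8249 RPM in BMP9 libraries, against 10740, 10940 and 10780 RPM in control libraries (exact two-sided permutation p = 0.3), so replicate 4 lay within the control range and replicates 5 and 6 lay below it.

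Genes that build or serve the chain were read from lists beside the members. Among assembly factors, those called lower were 3 of 14 for complex I (Ndufaf4, Ndufaf5 and Ecsit; list median -0.65), 2 of 8 for complexes II and III (Sdhaf2 and Uqcc2; -0.73) and 5 of 17 for complex IV (Cox10, Cox18, Coa7, Lrpprc and Cmc2; -0.58), with 0 higher in these 3 lists, and the 1 tested factor of complex V, Atpaf2, was lower as well (-1.47; not called after TMM scaling, -1.28). These are 21.4%, 25% and 29.4% of the first 3 lists, beside 22.5% of all tested genes called lower. Cox10 takes part in making the haem A of complex IV. It had 29.4, 29.7 and 33.0 RPM in BMP9 libraries, against 103, 86.2 and 64.0 RPM in control libraries. All BMP9 values were lower (-1.41, SE 0.29; limma adjusted p = 0.0016). After TMM scaling 1 gene of the complex I list, 0 of the complex II and III list, 3 of the complex IV list and 0 of the complex V list were lower, beside 14.6% of all genes.

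Of 16 genes of the tricarboxylic acid cycle and pyruvate dehydrogenase, 3 were lower (Suclg1, Idh3a and Ogdh) and 1 was higher, Pdha1, the alpha subunit of pyruvate dehydrogenase, at 434 ± 92.8 RPM in BMP9 and 249 ± 89.0 RPM in control libraries (SD, n = 3 each; 0.85, limma adjusted p = 0.044). The share called lower was 18.8%, below that of all genes, and after TMM scaling Suclg1 alone was lower and Pdha1 was still higher. The call of Pdha1 was lost with no filter, within the earlier time stamp (0.61) and with the stamp as covariate (0.61). It was also lost without control replicate 1 (0.97), control replicate 2 (0.52), BMP9 replicate 5 (0.68) or BMP9 replicate 6 (0.90). None of the 5 tested carriers of nucleotides, phosphate and protons was called (1, Vdac1, was higher after TMM scaling, at 1.01), and none of the 3 tested genes of the hypoxic switch of respiration. Of 11 regulators of mitochondrial biogenesis, 5 were lower and 0 higher (45.5% lower, beside 22.5% of all genes; median -0.72). After TMM scaling Gabpa and Myc alone were lower, 2 of 11 beside 14.6% of all genes. Gabpa, a subunit of the ETS factor GABP, had 13.7, 18.1 and 26.5 RPM in BMP9 libraries, against 74.2, 87.8 and 38.5 RPM in control libraries (-1.70, SE 0.36; limma adjusted p = 0.0021). Its groups did not overlap. Myc, a growth regulator also tied to cell division, fell by 1.64 (limma adjusted p = 0.00039), and Tfam, which packs and transcribes mitochondrial DNA, by 0.97 (limma adjusted p = 0.024; not called after TMM scaling, -0.73). Nrf1 changed by -0.24 and was not called, and Ppargc1a, below the filter, averaged 0.782 RPM in BMP9 and 5.13 RPM in control libraries. None of these lists was tested as a list, and the part of the T cell and cell cycle markers given above in these values was not tested.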

How the data were processed

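RPM values of 23930 genes in 6 libraries were deposited by the authors; the libraries were made with the Ion AmpliSeq Transcriptome Mouse panel for Ion Torrent, per the labels' protocols, with mm10 as the build, as the submitters' processing notes list it. What aligned and counted the reads is not given in the sources used here. Values were whole multiples of 1 read for 100% of values within 0.05 reads, so depths and reads were recovered. Reads carry no molecular identifiers, and floors cover counting error only. 0 columns were left unused.

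Values were taken as log2(RPM + 1), without rescaling, and tested with limma-trend (version 3.58.1 of limma under R 4.3.3). A gene was tested if 3 or more libraries had 5 RPM or more. The 9460 such genes shared a Benjamini-Hochberg adjustment, with a threshold of 0.05. Unless another tool is named, every adjusted p comes from this limma fit. Fold changes are BMP9 overexpression minus control on that scale, which understates changes of low genes. Sums by complex were compared by exact permutation. Time stamps in the descriptions, whose meaning the labels do not state, set BMP9 replicates 5 and 6 (later stamp) apart from BMP9 replicate 4 and the 3 control libraries (earlier stamp).

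Alternatives were pseudocounts of 0.5 and 5, no filter, a mean of at least 20 RPM, TMM, quantile normalization, the stamp as covariate, the earlier stamp alone, each library left out, and edgeR 4.0.16 (3114 genes called) and DESeq2 1.42.0 (3317 called) on recovered reads. The stamp as covariate and the earlier stamp alone give the same difference, BMP9 replicate 4 minus control, so they are not independent checks. The procedure was tested on simulated data. Members and lists were chosen with earlier results of these data known. The genes named are up to 4 per complex with the smallest p, the 2 with the highest mean, isoform genes, the member called against the majority and those below the filter; other members and list genes were added after their values were seen. The values of 1 member, which is included in all counts, sums and medians, are not reported here. Coordinates are whole genes of GENCODE M21, found for 72 of the 74; amplicon positions were not used. Many of these genes have near-identical processed pseudogenes, and how the authors treated reads shared with them is not given, so such counts are uncertain.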

Additional observations from a re-analysis of the deposited data

How the results depend on the processing

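Alternatives changed most counts and medians. Members called higher (1) were 4 with TMM, 7 with the stamp as covariate, 4 within the earlier stamp and 8 with edgeR and DESeq2, and 0 to 2 without a library. Members called lower (13) were 8, 8, 7, 7 and 8 in that order, and 7 to 18 without a library. Their median (-0.24) was 0.01 with TMM, -0.12 with the covariate and the earlier stamp, 0.00 with edgeR and -0.01 with DESeq2. Called in either direction were 12.7% of members without control replicate 1 and 30.2% without BMP9 replicate 4, beside 22.2% and 37.1% of all genes. In complex I, calls higher (0) were 2 with the covariate and the earlier stamp, 3 with edgeR and DESeq2, and 0 to 1 without a library. Calls lower (7) were 4 with TMM, the earlier stamp, edgeR and DESeq2, and 4 to 8 without a library. The median (-0.27) was -0.01 with TMM and edgeR, -0.02 with DESeq2 and -0.42 to -0.19 without a library. In complex II, calls higher (0) were 1 with TMM, the covariate and the earlier stamp and 2 with edgeR and DESeq2, and the median (0.32) was 0.57 with TMM and edgeR, 0.56 with DESeq2 and 0.16 (without BMP9 replicate 4) to 0.46 without a library. In complex III, calls higher (1) were 0 with no filter, 3 with TMM, edgeR and DESeq2, 2 with the covariate, and 0 to 1 without a library. Calls lower (1) were 0 with no filter, TMM, the covariate, the earlier stamp, edgeR and DESeq2, and 0 to 2 without a library. The median (-0.03) was 0.22 with TMM, 0.27 with the covariate, the earlier stamp and DESeq2, 0.29 with edgeR and -0.07 to 0.14 without a library. In complex IV, 1 gene was called higher with no filter (Cox4i2) and with the covariate (Cox6b1), calls lower (1) were 1 to 3 without a library, and the median (-0.39) was -0.07 with the covariate and the earlier stamp, -0.13 with edgeR, -0.14 with TMM and DESeq2 and -0.57 to -0.30 without a library. In complex V, 1 gene was called higher with the covariate (Atp5j2), 1 was lower with no filter (against 3), and the median (-0.52) was -0.27 with TMM, -0.35 with the covariate and the earlier stamp, -0.28 with edgeR, -0.30 with DESeq2 and -0.62 to -0.51 without a library. Uqcr11 turned from -0.02 to 0.91 with the covariate. Beyond the scaling that TMM changes by construction, and the genes and samples that other settings leave out, the cause was not tested.

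Pseudocounts of 0.5 and 5, the filter on the mean and quantile normalization left each count of members called within 1.5 times its value. With 3 libraries in a group and depths that differ between libraries, a p that misses the threshold does not show that a gene did not differ. No paired analysis was possible because the groups share no replicate number.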
